A study of Mus musculus with 12 samples.

Results

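The genes described here are 38 genes of germ cells: genes of stem spermatogonia, of their differentiation, of germ cell RNA regulation and transposon control, and of meiosis. They were taken by symbol from a table of 17576 genes, which held 35 of them. The levels of Sall4, Sycp2 and Utf1 were not analysed here. Total RNA was sequenced from C18-4 cells, an immortalised mouse line derived from spermatogonial stem cells, in 12 libraries. The 4 groups of 3 libraries were 8276OV (virus for overexpression of the long noncoding RNA lncRNA8276), 5NC, 8276KD (virus for its inhibition) and 3NC. The labels do not spell out 5NC and 3NC. The design text names 5NC next to overexpression and 3NC next to knockdown, so they were taken as the controls of 8276OV and 8276KD, and C18-4 cells carrying a virus are common to all groups as far as the labels say. The level of lncRNA8276 was not analysed here. No label states that libraries of a group are separate cultures, so p-values reflect only how far these libraries spread, and that spread may be technical.

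Values were read as FPKM, fragments scaled by transcript length and library total, so levels can be set side by side between genes. Small values above 0, with estimates kept within a preset window of 10 to 16 M, implied 12 to 13.3 M fragments per library. The worth of 1 fragment given below rests on this and is approximate. In each library 10929 to 11165 genes were at or above 1. On the log2(value + 1) scale Pearson's r was 0.997 to 0.999 between libraries of a group and 0.979 to 0.995 between groups. Of 162 genes picked by name from families such as ribosomal proteins and proteasome subunits, 1 was listed at 0 in every library. It was Rpl39l, a paralogue of Rpl39 that need not be used by every cell. A value of 0 is given here only as listed at 0.

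Stem spermatogonia of the mouse testis are maintained by GDNF from Sertoli cells, which signals through the receptor RET and its co-receptor GFRA1 and keeps transcription factors such as BCL6B, LHX1 and POU3F1 expressed. Retinoic acid then drives differentiation, marked by KIT, STRA8 and SOHLH1, and meiosis follows, in which a special cohesin and the synaptonemal complex hold and pair the chromosomes. Throughout, germ cells use RNA-binding proteins such as DAZL and DDX4 and the piRNA pathway, in which PIWI proteins guided by small RNAs silence transposons. In somatic cells many of these genes are kept off by promoter DNA methylation and by repressor complexes that bind their promoters.

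Most of the germ cell genes were silent or close to silent. Of the 35 genes in the table, 3 were listed at 0 in all 12 libraries, 23 were above 0 in some library but stayed below 1 FPKM in all 12, and 9 reached 1. These classes held 8.57%, 65.7% and 25.7% of the germ cell genes, beside 3.35%, 30.9% and 65.8% of all genes in the table. The genes that reached 1 were 5 of 17 listed for stem spermatogonia (Pou3f1, Taf4b, Foxo1, Nanos1 and Epcam), none of 5 for differentiation, 2 of 8 for RNA regulation and transposon control (Tex19.1 and Piwil2) and 2 of 8 for meiosis (Stag3 and Sycp1). Of these 9, 8 were at or above 1 in every library, and Sycp1 in 6. Sycp1, highest at 1.33 FPKM, lay just inside the limit of 1, and Sycp3 at 0.62 and Dnd1 at 0.61 FPKM lay just outside it.

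**Figure D1:**
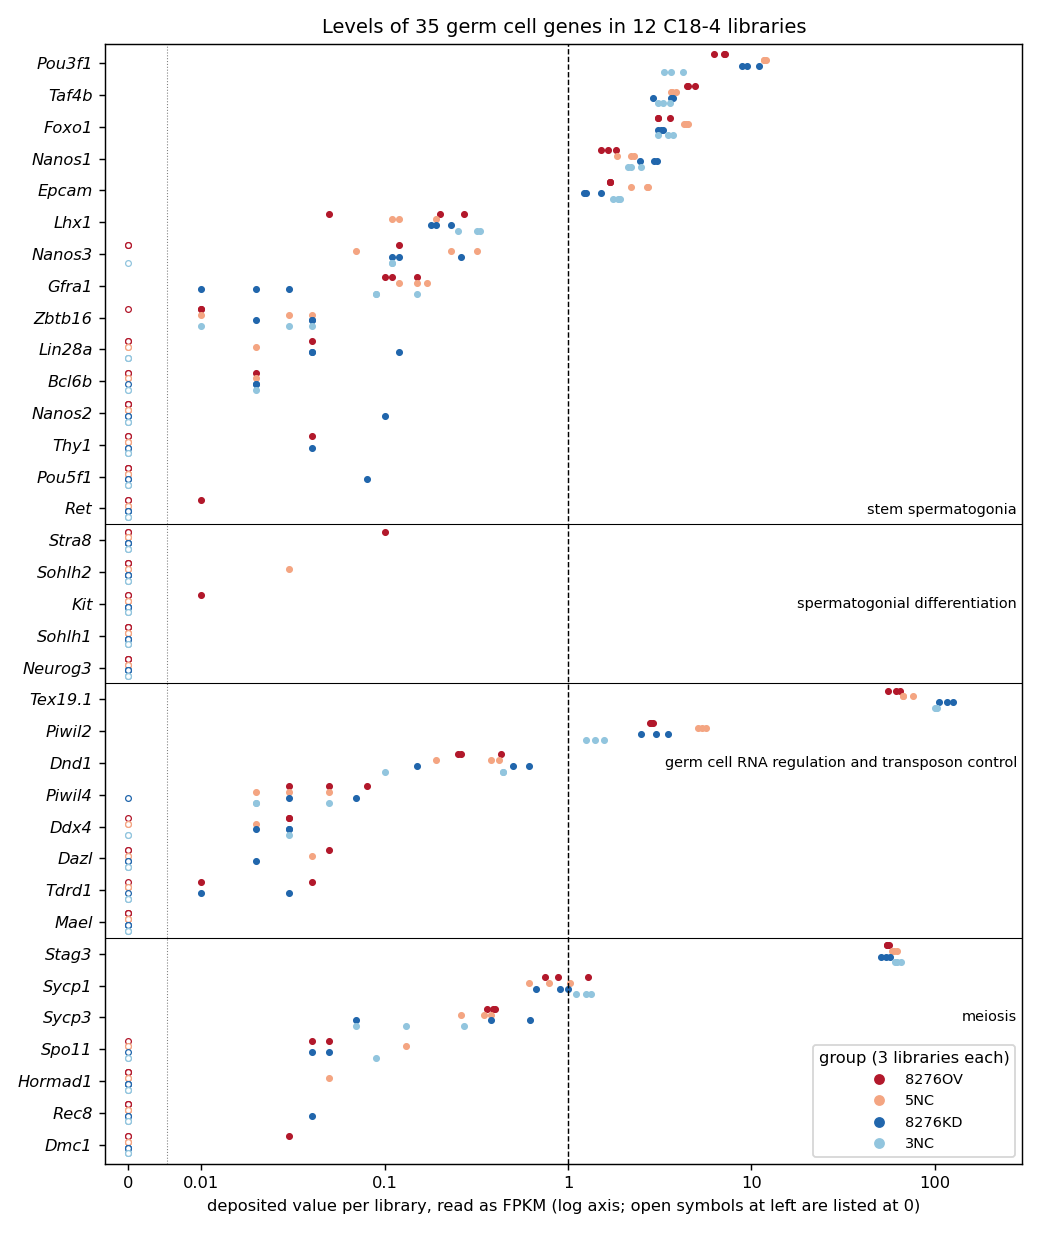
Deposited value of each of the 35 germ cell genes in each of the 12 libraries (horizontal log axis, FPKM; open symbols at the left are listed at 0), grouped by role and ordered by mean within a role, with colours for the 8276OV, 5NC, 8276KD and 3NC libraries. The dashed line marks 1 FPKM: 9 genes reach it, and Tex19.1 and Stag3 alone lie above 50 FPKM.

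The GDNF receptor genes Gfra1 and Ret were both below 0.2 FPKM. Gfra1, the co-receptor, had 0.11, 0.15 and 0.10 FPKM in 8276OV, against 0.17, 0.15 and 0.12 FPKM in 5NC, and 0.02, 0.03 and 0.01 FPKM in 8276KD, against 0.09, 0.15 and 0.09 FPKM in 3NC. The 8276KD libraries lay below all 9 others, at a level where 1 fragment is worth about 0.017 FPKM. Ret, the receptor itself, had 0.01 FPKM in 1 library of 8276OV and was listed at 0 in the other 11. Zbtb16, which encodes the spermatogonial zinc finger factor PLZF, was above 0 in 11 libraries but never over 0.04 FPKM, and Bcl6b was above 0 in 5 with a highest value of 0.02 FPKM. Lhx1, another factor kept up by GDNF, was above 0 in every library, with 0.20, 0.27 and 0.05 FPKM in 8276OV, 0.11, 0.19 and 0.12 in 5NC, 0.23, 0.18 and 0.19 in 8276KD and 0.32, 0.33 and 0.25 in 3NC. Against the label of a spermatogonial stem cell line, Gfra1, Ret and Zbtb16 thus stayed at or below 0.17, 0.01 and 0.04 FPKM, while Pou3f1, Taf4b, Foxo1, Nanos1 and Epcam of the same list were at or above 1 in every library.

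The remaining low stem spermatogonial genes were Nanos2, Nanos3, Lin28a, Thy1 and Pou5f1. Nanos2, an RNA-binding protein that holds spermatogonia undifferentiated, had 0.10 FPKM in 1 library of 8276KD and was listed at 0 elsewhere. Its relative Nanos3 was above 0 in 9 libraries, with a highest value of 0.32 FPKM, where 1 fragment is worth about 0.108 FPKM. The 0.07 FPKM of Nanos3 in 5NC replicate 3 lay below this estimated worth. Lin28a, which blocks maturation of let-7 microRNAs, had 0.04, 0.12 and 0.04 FPKM in 8276KD and was listed at 0 in the 3 libraries of 3NC. Thy1, a surface marker used to enrich stem spermatogonia, was above 0 in 2 libraries, up to 0.04 FPKM, and the pluripotency factor Pou5f1 in 1, at 0.08 FPKM.

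No gene of spermatogonial differentiation was detected beyond a few fragments. Kit, the receptor of differentiating spermatogonia, had 0.01 FPKM in 1 library, Stra8, the retinoic acid target needed for meiotic entry, 0.10 FPKM in 1, and Sohlh2, a transcription factor of differentiating spermatogonia, 0.03 FPKM in 1. Its partner Sohlh1 and Neurog3, a factor of early progenitors, were listed at 0 in all 12 libraries, where 1 fragment would be worth about 0.0611 and 0.0511 FPKM.

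Among the genes of germ cell RNA, Ddx4, the RNA helicase that defines germ cells, reached 0.03 FPKM at most and was above 0 in 7 libraries, and Dazl, which promotes translation in germ cells, reached 0.05 FPKM and was above 0 in 3. Piwil4, the nuclear PIWI protein of fetal male germ cells, stayed at or below 0.08 FPKM in 11 libraries with a value above 0, and Tdrd1, a scaffold of the piRNA machinery, reached 0.04 FPKM in 4 libraries with a value. Mael, which acts in transposon silencing, was listed at 0 in all 12. Dnd1, which protects germ cell RNAs from microRNAs, ranged between 0.10 and 0.61 FPKM over the 12 libraries. Of its 2412 exon bases, 140 overlap Wdr55 on the other strand, a gene at 22.02 to 35.45 FPKM, and the handling of strand is not given in the sources used here, so the reads cannot be told apart.

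Of the meiosis genes below 1, Sycp3, a lateral element protein of the synaptonemal complex, was the highest, between 0.07 and 0.62 FPKM. It shares 660 of its 1264 exon bases with Chpt1 on the other strand, which stood at 11.62 to 15.55 FPKM, so its level is uncertain in the same way. Spo11, the enzyme that makes the meiotic breaks, was above 0 in 6 libraries and at most 0.13 FPKM. Rec8, the meiotic kleisin of cohesin, Dmc1, the meiotic recombinase, and Hormad1, a protein of unpaired axes, were each above 0 in 1 library, at 0.04, 0.03 and 0.05 FPKM.

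Fibroblast, epithelial and mesothelial, and peritubular myoid markers were mostly above 1 FPKM, whereas most Sertoli, Leydig, macrophage and endothelial markers were below it. Of the 7 fibroblast markers in the table, 6 reached 1, led by Col1a1 with a mean of 301.3 FPKM over all libraries, and of 9 epithelial and mesothelial markers 7 did, led by Upk3b (477.7 FPKM) and Krt19 (247.0 FPKM). For Sertoli cell markers the count was 4 of 10, led by Wt1 at 53.3 FPKM, while Sox9 stayed at or below 0.02 and Amh at or below 0.14 FPKM. Peritubular myoid markers reached 1 in 5 of 7 (Tagln 52.2 FPKM), Leydig cell markers in 1 of 5 (Star, 1.12 FPKM), macrophage markers in 1 of 5 (Cd68, 2.99 FPKM), and endothelial markers in 0 of 5, with Cdh5 listed at 0. The defining genes Cyp17a1, Ptprc and Cdh1 were at or below 0.04, 0.03 and 0.07 FPKM. Low values also occurred in the lists that mostly reached 1. The fibroblast markers Pdgfra and Pdgfrb averaged 0.916 and 0.87 FPKM, and Col1a2 stayed at or below 0.58 FPKM. The myoid markers Myh11 and Actg2 stayed at or below 0.08 and 0.05 FPKM.

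**Figure D2:**
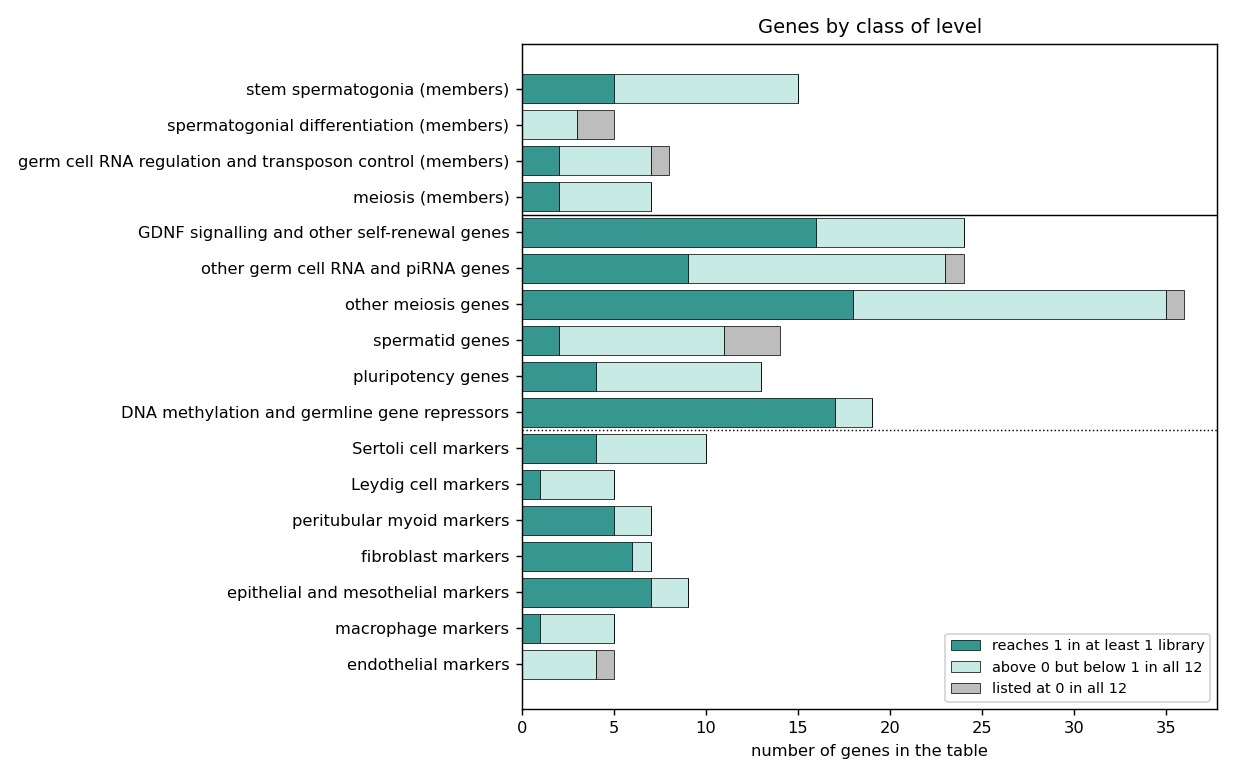
Number of genes in the table (horizontal axis) that reach 1 FPKM in at least 1 library, stay above 0 but below 1 in all 12, or are listed at 0 in all 12, for the germ cell genes by role (top), related gene lists (middle) and markers of other cell types (bottom). Of the differentiation genes none reaches 1, whereas 6 of 7 fibroblast markers and 7 of 9 epithelial and mesothelial markers do.

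Stag3, Tex19.1 and Sycp1 are the 3 genes of transposon control and meiosis that reached 1 (Sycp1 in 6 libraries only) and matched a window. Ddx4, close to 0, and Mael, listed at 0, are examples of low genes. Promoter sequences are shown so that these genes can be set side by side. Each is the RefSeq window (GRCm38.p6, the assembly of mm10) of 250 bases before to 50 after an annotated start, 5′ to 3′ on the gene's strand. Capitals mark CACGTG, the E box bound by MAX dimers, and GCGGGA on either strand (TCCCGC on the other), the core of E2F-type sites. Proteins of both kinds are known parts of a complex that keeps germline genes off in somatic cells.
Stag3 (chr5:138280259-138280558, plus strand): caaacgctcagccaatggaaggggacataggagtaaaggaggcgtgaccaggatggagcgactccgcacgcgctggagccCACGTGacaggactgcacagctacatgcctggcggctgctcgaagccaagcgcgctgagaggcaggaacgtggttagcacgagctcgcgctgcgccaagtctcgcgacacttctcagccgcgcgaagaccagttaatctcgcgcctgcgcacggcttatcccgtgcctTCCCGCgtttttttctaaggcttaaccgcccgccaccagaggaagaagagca
Tex19.1 (chr11:121145893-121146192, plus strand): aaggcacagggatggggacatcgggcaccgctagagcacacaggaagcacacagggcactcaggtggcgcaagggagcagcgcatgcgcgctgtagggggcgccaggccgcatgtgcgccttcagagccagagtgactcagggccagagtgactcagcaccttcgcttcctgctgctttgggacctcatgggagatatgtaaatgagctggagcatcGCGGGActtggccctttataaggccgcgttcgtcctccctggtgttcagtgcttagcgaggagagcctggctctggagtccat
Sycp1 (chr3:102936051-102936350, minus strand): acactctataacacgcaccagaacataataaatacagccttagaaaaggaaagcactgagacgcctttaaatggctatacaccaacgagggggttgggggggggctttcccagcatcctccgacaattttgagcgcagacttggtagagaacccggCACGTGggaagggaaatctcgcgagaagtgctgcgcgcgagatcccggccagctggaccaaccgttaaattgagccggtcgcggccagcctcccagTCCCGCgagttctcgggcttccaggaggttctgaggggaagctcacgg
Ddx4 (chr13:112652261-112652560, minus strand): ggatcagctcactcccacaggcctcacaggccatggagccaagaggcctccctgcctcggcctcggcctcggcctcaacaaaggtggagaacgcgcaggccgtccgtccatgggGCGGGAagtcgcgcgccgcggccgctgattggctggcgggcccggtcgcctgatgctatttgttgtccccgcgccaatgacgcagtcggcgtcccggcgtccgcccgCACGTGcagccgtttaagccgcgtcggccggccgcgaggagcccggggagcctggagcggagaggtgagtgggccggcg
Mael (chr1:166238695-166238994, minus strand): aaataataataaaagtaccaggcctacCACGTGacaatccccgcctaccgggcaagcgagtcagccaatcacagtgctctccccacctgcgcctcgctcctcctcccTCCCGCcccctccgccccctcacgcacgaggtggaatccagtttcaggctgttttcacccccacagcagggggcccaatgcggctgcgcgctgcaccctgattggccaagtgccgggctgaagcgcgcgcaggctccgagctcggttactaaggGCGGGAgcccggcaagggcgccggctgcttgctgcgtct

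In these windows, Tex19.1 held no CACGTG and 1 GCGGGA, Stag3, Sycp1 and Ddx4 held 1 of each, and Mael 1 and 2. CpG dinucleotides numbered 30 in Stag3, 16 in Tex19.1, 21 in Sycp1, 38 in Ddx4 and 24 in Mael, where the median over all 32851 windows was 7. Of 28 germ cell genes with a window (26 with a level, and Sycp2 and Utf1), 9 (32.1%) held CACGTG, 11 (39.3%) held GCGGGA and 7 (25.0%) held both, beside 8.09%, 22.0% and 2.65% of all 27025 genes with one. Both motifs occurred in 3 of the 6 genes that reached 1 and in 4 of the 20 that stayed below 1. Ddx4 and Mael are among these 4, so the printed windows do not stand for the low genes. Neurog3, Dazl, Stra8, Gfra1, Lin28a and Nanos2, for example, held neither motif. The motifs are letter matches, not binding sites, and the shares were not tested against each other. Both motifs contain a CpG, and the median CpG count was 17.5 for the 28 germ cell genes and 8.0 for all genes with a window. The shares were not matched for this count. Tex19.1, the highest of the genes, lacked the pair.

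Among the 9 genes that reached 1, Tex19.1 and Stag3 stood apart in level. Tex19.1 (chr11:121146143-121148314), which restrains retrotransposons in germ cells and in the placenta, had 55.78, 64.50 and 61.46 FPKM in 8276OV, against 76.39, 66.87 and 67.15 FPKM in 5NC, and 105.29, 124.75 and 115.75 FPKM in 8276KD, against 102.94, 100.03 and 101.27 FPKM in 3NC. By its mean over the 12 libraries it ranked 1066 of the 17576 genes. The 8276OV libraries were the lowest and the 8276KD libraries the highest, and neither pair of group and control overlapped. Piwil2 (chr14:70372477-70436898), which encodes the cytoplasmic PIWI protein MILI, ranked 9731. It had 2.92, 2.82 and 2.78 FPKM in 8276OV, against 5.40, 5.67 and 5.09 FPKM in 5NC, and 3.02, 2.51 and 3.49 FPKM in 8276KD, against 1.40, 1.57 and 1.26 FPKM in 3NC. For Piwil2 the controls were the extremes, with 5NC highest and 3NC lowest, and both manipulated groups lay between them.

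Stag3 (chr5:138272514-138312397), the meiosis-specific STAG subunit of cohesin, had 54.53, 54.77 and 56.38 FPKM in 8276OV, against 58.00, 59.67 and 62.03 FPKM in 5NC, and 50.95, 56.89 and 54.14 FPKM in 8276KD, against 60.68, 62.15 and 65.54 FPKM in 3NC. It ranked 1671, and in both arms every manipulated library lay below every control library. Sycp1 (chr3:102818499-102936100), the transverse filament of the synaptonemal complex, had 1.28, 0.75 and 0.88 FPKM in 8276OV, against 0.61, 0.79 and 1.02 FPKM in 5NC, and 1.0, 0.67 and 0.90 FPKM in 8276KD, against 1.10, 1.26 and 1.33 FPKM in 3NC. Its 8276OV and 5NC libraries overlapped, and 3NC lay above 8276KD. Rec8, the kleisin that meiotic cohesin with STAG3 can contain, was listed at 0 in 11 libraries, as given above.

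The 5 expressed stem spermatogonial genes lay between 1.22 and 11.99 FPKM. Pou3f1 (chr4:124657646-124660655), a POU transcription factor that GDNF induces, had 6.27, 7.16 and 7.07 FPKM in 8276OV, against 11.74, 11.99 and 11.66 FPKM in 5NC, and 8.89, 10.95 and 9.44 FPKM in 8276KD, against 3.65, 3.32 and 4.24 FPKM in 3NC. As for Piwil2, 5NC was highest and 3NC lowest, and for Pou3f1 the 4 groups held separate ranges. Foxo1 (chr3:52268337-52350109), a transcription factor needed to maintain stem spermatogonia, had 3.09, 3.59 and 3.11 FPKM in 8276OV, against 4.30, 4.51 and 4.37 FPKM in 5NC, and 3.28, 3.10 and 3.23 FPKM in 8276KD, against 3.10, 3.73 and 3.52 FPKM in 3NC. Only the 5NC libraries stood apart. Taf4b, a gonad-enriched subunit of the general factor TFIID, had 4.95, 4.50 and 4.45 FPKM in 8276OV, against 3.62, 3.90 and 3.69 FPKM in 5NC, and 3.72, 2.90 and 3.66 FPKM in 8276KD, against 3.58, 3.29 and 3.10 FPKM in 3NC. Here the 8276OV libraries were above all others.

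Nanos1 (chr19:60755987-60759914), an RNA-binding translational repressor, had 1.82, 1.66 and 1.52 FPKM in 8276OV, against 1.84, 2.28 and 2.19 FPKM in 5NC, and 2.94, 2.47 and 3.07 FPKM in 8276KD, against 2.49, 2.12 and 2.19 FPKM in 3NC. The 8276OV libraries were the lowest, and 8276KD overlapped 3NC by 1 library. Epcam (chr17:87635979-87651127), an adhesion protein of spermatogonia and of epithelia, had 1.70, 1.69 and 1.70 FPKM in 8276OV, against 2.73, 2.19 and 2.70 FPKM in 5NC, and 1.51, 1.22 and 1.25 FPKM in 8276KD, against 1.93, 1.75 and 1.87 FPKM in 3NC. In both arms the manipulated libraries lay below their controls.

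**Figure D3:**
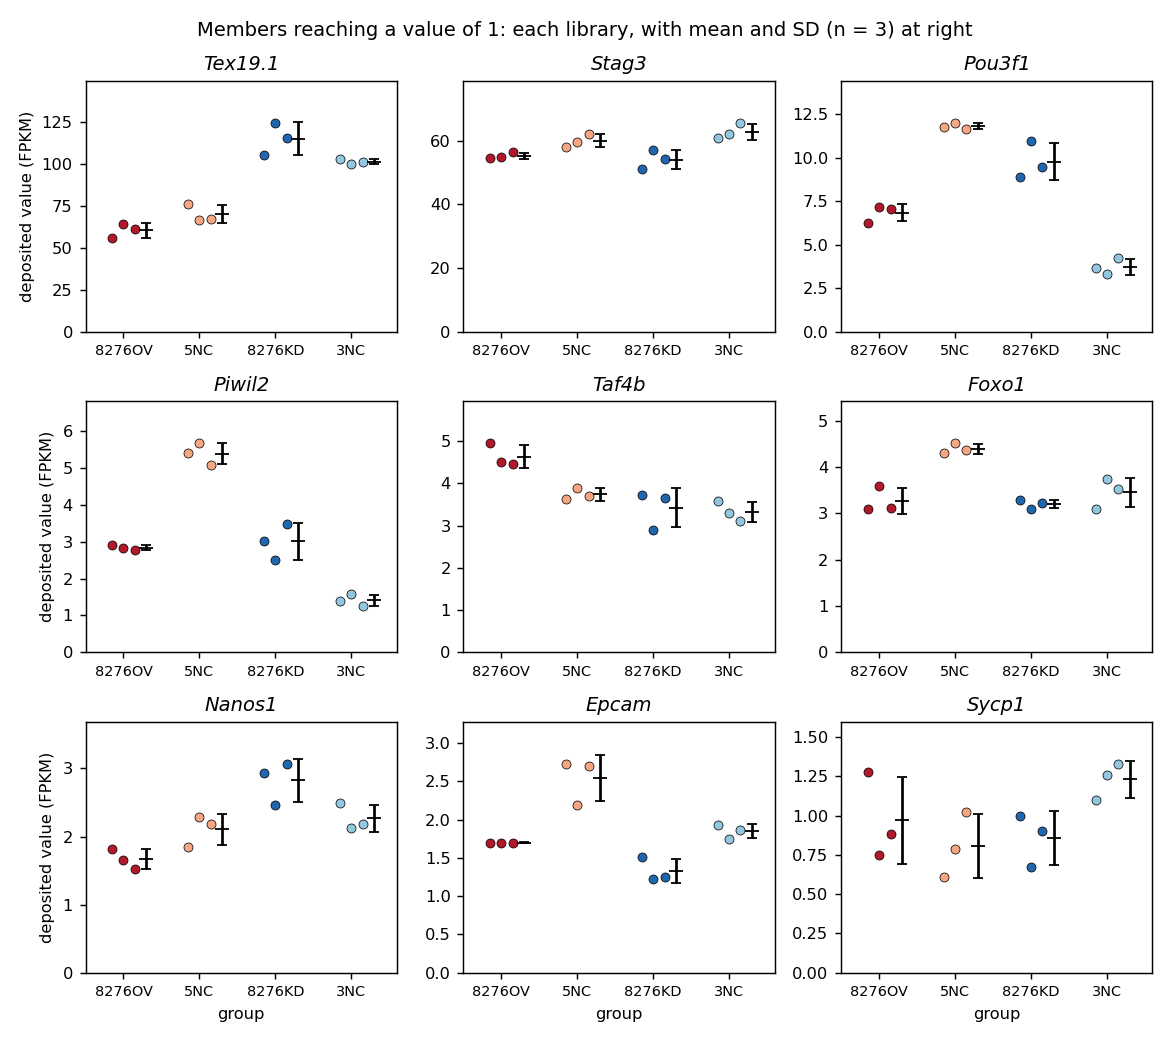
Deposited value (vertical axes, FPKM, each starting at 0) of the 9 germ cell genes that reach 1, per library in 8276OV, 5NC, 8276KD and 3NC, with the group mean and SD (n = 3) beside the points. Tex19.1 is lowest in 8276OV and highest in 8276KD, whereas Pou3f1 and Piwil2 are highest in 5NC and lowest in 3NC.

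When overexpressing libraries were set against 5NC, Piwil2 and Pou3f1 fell most, Foxo1 and Epcam fell less, Tex19.1, Nanos1 and Stag3 fell slightly, and Taf4b rose. Differences are given in log2(value + 1), where changes of low genes come out too small, and were tested with limma over all 11360 genes with at least 1 FPKM in at least 3 libraries, at a Benjamini-Hochberg adjusted p below 0.05. Piwil2 averaged 2.84 ± 0.0721 FPKM in 8276OV and 5.39 ± 0.290 FPKM in 5NC (SD, n = 3 each), a log2 difference of -0.73 (SE 0.0865, limma adjusted p = 5.90e-06). Pou3f1 averaged 6.83 ± 0.490 FPKM in 8276OV and 11.8 ± 0.172 FPKM in 5NC, a difference of -0.71 (SE 0.0837, limma adjusted p = 5.83e-06). The log2 differences of Epcam and Foxo1 were -0.39 and -0.34 (limma adjusted p = 5.10e-04 and 6.21e-04). Smaller were those of Taf4b (0.25, adjusted p = 0.0122), Nanos1 (-0.22, 0.0332), Tex19.1 (-0.21, 0.0153) and Stag3 (-0.11, 0.0480). Sycp1, at 0.970 ± 0.276 FPKM in 8276OV and 0.807 ± 0.206 FPKM in 5NC, did not pass the test (0.12, adjusted p = 0.340).

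In all, 7 of the 9 tested germ cell genes were called lower in 8276OV and 1 higher, where 44.1% and 30.3% of all tested genes were called lower and higher and 74.4% were called at all, so the count is not read as particular to these genes. By absolute size, the difference of Piwil2 lay at percentile 91.1 and that of Pou3f1 at percentile 90.3 of the tested genes, and that of Stag3 at percentile 18.1. The groups did not overlap for 8 of the 9, where 77.6% of all tested genes did not overlap.

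Across 11197 tested genes, the difference between 8276OV and 5NC fell as transcript GC content rose (Spearman's rho = -0.789, over genes, which are not independent). After a spline on GC content was removed from each library, 3 of the 9 genes were called, all lower (54.8% of all genes): Piwil2 at -0.70 (limma adjusted p = 6.55e-06), Foxo1 at -0.35 (5.44e-04) and Sycp1, which turned to -0.30 (0.0141). Pou3f1, whose transcript has 63.9% GC, turned to 0.11 (adjusted p = 0.137), and Tex19.1, with 52.6% GC, to 0.057 (0.339). Epcam, Nanos1, Stag3 and Taf4b kept their sign but were no longer called, with adjusted p of 0.262, 0.140, 0.111 and 0.245. Without the library 8276OV replicate 1, 5 genes were called, and Taf4b (adjusted p = 0.0513), Tex19.1 (0.0746) and Stag3 (0.106) were not. Tex19.1 was also lost without 5NC replicate 1 (0.0843), and Stag3 was lost on leaving out any library of the 2 groups except 5NC replicate 1, with adjusted p of 0.0592 to 0.169. Nanos1 was lost on leaving out any of 4 libraries, 8276OV replicate 2 (adjusted p = 0.0613) or 3 (0.116) or 5NC replicate 2 (0.118) or 3 (0.0935).

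In the knockdown libraries, Pou3f1 and Piwil2 were higher than in 3NC, Nanos1 rose slightly, and Epcam and Stag3 fell. Pou3f1 averaged 9.76 ± 1.07 FPKM in 8276KD and 3.74 ± 0.466 FPKM in 3NC (SD, n = 3 each), a log2 difference of 1.18 (SE 0.0837, limma adjusted p = 2.66e-07). Piwil2 averaged 3.01 ± 0.490 FPKM in 8276KD and 1.41 ± 0.155 FPKM in 3NC, a difference of 0.73 (SE 0.0865, limma adjusted p = 2.62e-05). Epcam differed by -0.29 (adjusted p = 0.00939), Stag3 by -0.21 (0.00373) and Nanos1 by 0.23 (0.0495). Tex19.1, at 115.3 ± 9.74 FPKM in 8276KD and 101.4 ± 1.46 FPKM in 3NC, missed the threshold (0.18, adjusted p = 0.0554), as did Sycp1 (-0.27, 0.0774), Foxo1 (-0.080, 0.394) and Taf4b (0.030, 0.794). The 3 genes called higher and 2 called lower stand beside 20.0% and 19.5% of all tested genes, 39.4% in all. In size, Pou3f1 lay at percentile 99.6 and Piwil2 at percentile 97.8 of the tested genes.

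The knockdown differences were less tied to GC content (rho = -0.22), and after its correction 7 genes were called, where 48.4% of all genes were. The additional ones were Tex19.1 (0.20, limma adjusted p = 0.00317) and Sycp1 (-0.34, 0.00834). Tex19.1 was also called when 8276KD replicate 1 was left out (0.24, adjusted p = 0.0183), and Nanos1 was lost without 8276KD replicate 1 or 3 or 3NC replicate 2 or 3, with adjusted p of 0.129 to 0.172. Below the filter, Gfra1 was called lower in 8276KD than in 3NC when all genes were tested (-0.12, limma adjusted p = 0.00830). An antisense gene, Gm16277, overlaps 416 of its exon bases, and likewise Gm2164 overlaps 330 exon bases of Pou3f1, Gm20402 overlaps 674 of Foxo1 and Gm13061 overlaps 234 of Lin28a, so reads of these pairs cannot be told apart. Lin28a was called higher there (0.092, adjusted p = 0.0349), Nanos3 lower in 8276OV than in 5NC (-0.21, 0.0480) and Lhx1 lower in 5NC than in 3NC (-0.19, 0.0271). Lin28a and Nanos3 rest on only about 11 and 13 estimated fragments over the 12 libraries, and Gfra1 and Lhx1 on about 70 and 120. Of the 16987 genes tested without a filter, 25.0%, 51.7% and 39.4% were called in the 3 comparisons, knockdown, overexpression and controls.

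For Pou3f1, Piwil2 and Tex19.1, the difference between the control viruses was larger in size than that in either arm, though the gap between these differences was not tested. In 5NC, Pou3f1 was 1.44 and Piwil2 1.41 higher than in 3NC on the log2 scale (SE 0.0837 and 0.0865, limma adjusted p = 8.72e-09 and 1.52e-08), and both lay at percentile 99.1 of the tested genes. Tex19.1 averaged 70.1 ± 5.42 FPKM in 5NC and 101.4 ± 1.46 FPKM in 3NC (SD, n = 3 each), a difference of -0.53 (SE 0.0697, limma adjusted p = 2.46e-05). Epcam and Foxo1 were higher in 5NC by 0.31 and 0.28 (adjusted p = 0.00428 and 0.00416), and Sycp1 differed by -0.31 (0.0322). Nanos1 (-0.075), Stag3 (-0.067) and Taf4b (0.13) did not pass, with adjusted p of 0.474, 0.265 and 0.175. The 4 genes called higher and 2 called lower stand beside 30.6% and 25.9% of all tested genes, 56.5% in all. Sycp1 was lost without 5NC replicate 1 or 2 or 3NC replicate 2 or 3, with adjusted p of 0.0715 to 0.137.

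These comparisons share libraries, 5NC with the overexpression arm and 3NC with the knockdown arm, so their differences are given side by side and not as separate evidence. As deposited, the direction of Pou3f1 and Piwil2 turned in each arm when the other control was used. With 3NC as the control of 8276OV, 6 of the 9 genes were called (75.2% of all genes), and with 5NC as the control of 8276KD, 7 were (55.3%). In 8276OV, Pou3f1 was 0.73 and Piwil2 0.67 higher than in 3NC (limma adjusted p = 3.45e-06 and 9.71e-06). In 8276KD, Pou3f1 differed from 5NC by -0.25 and Piwil2 by -0.68 (adjusted p = 0.0194 and 2.27e-05). After GC correction, Pou3f1 in 8276KD differed from 5NC by -0.032 (limma adjusted p = 0.669). In 8276OV, Pou3f1 then differed by 0.11 from 5NC and by 1.43 from 3NC (adjusted p = 0.137 and 3.50e-11), so its direction there no longer turned. Piwil2 still turned after the correction, at 0.68 in 8276OV against 3NC and -0.65 in 8276KD against 5NC. Against the 6 control libraries together, Piwil2 differed by -0.030 in 8276OV and 0.025 in 8276KD (adjusted p = 0.728 and 0.814). As deposited, Tex19.1 kept its direction against either control, at -0.74 in 8276OV against 3NC and 0.71 in 8276KD against 5NC (adjusted p = 5.87e-07 and 2.09e-06), and Stag3 was lower in both manipulated groups than in either control (-0.18 in 8276OV against 3NC, adjusted p = 0.00425, and -0.15 in 8276KD against 5NC, 0.0205). Taf4b was also higher in 8276OV than in 3NC (0.38, adjusted p = 6.78e-04).

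**Figure D4:**
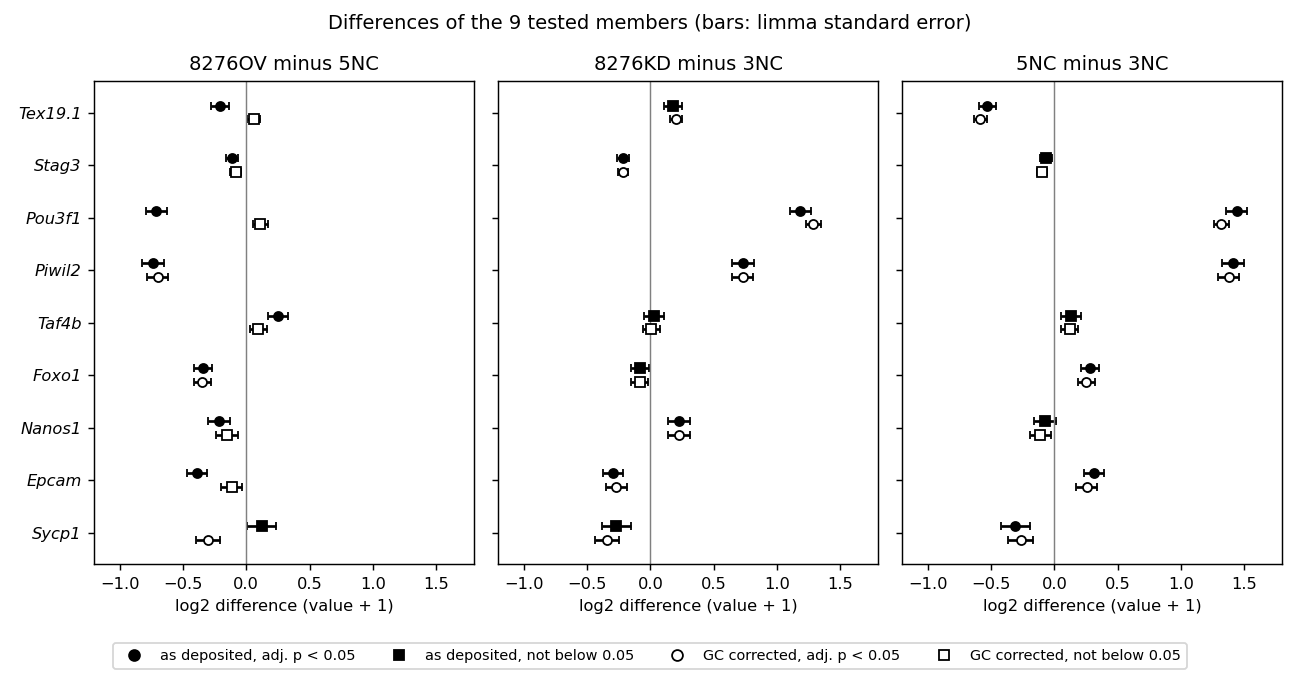
Log2 difference (horizontal axes, log2 of value + 1) of the 9 tested germ cell genes for 8276OV minus 5NC, 8276KD minus 3NC and 5NC minus 3NC, with limma standard errors, as deposited (filled) and after correction for GC content (open); circles have an adjusted p below 0.05 and squares do not. Pou3f1 moves to the other side of 0 after the correction in 8276OV minus 5NC (-0.71 and 0.11), and stays at 1.18 and 1.29 in 8276KD minus 3NC.

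The overexpression and knockdown differences were then compared with each other. Overexpression minus knockdown, they differed by -1.89 for Pou3f1 (SE 0.118, limma adjusted p = 1.93e-07), -1.46 for Piwil2 (SE 0.122, 1.70e-06), -0.44 for Nanos1 (0.00633), -0.39 for Tex19.1 (0.00423), -0.26 for Foxo1 (0.0363) and 0.39 for Sycp1 (0.0493). Epcam (-0.095), Stag3 (0.10) and Taf4b (0.22) did not pass, with adjusted p of 0.476, 0.227 and 0.109. The 5 genes called lower and 1 called higher stand beside 36.2% and 24.5% of all tested genes, 60.6% in all. After GC correction 4 were called, where 49.3% of all genes were, and Tex19.1 (-0.15, adjusted p = 0.0937) and Sycp1 (0.037, 0.839) no longer passed. Foxo1 was also lost on leaving out any of 9 libraries (all but 8276OV replicate 2, 8276KD replicate 2 and 3NC replicate 2), with adjusted p of 0.0502 to 0.0974, and Sycp1 on leaving out any of 9 (all but 8276OV replicate 2, 5NC replicate 3 and 8276KD replicate 1), with 0.0505 to 0.130. Over the 4 groups at once, limma's F test called 8 of the 9, all but Sycp1 (adjusted p = 0.0776, and 0.0331 without 8276OV replicate 1 or 0.0394 without 5NC replicate 3), where it called 91.8% of all genes. After GC correction the F test called all 9, where it called 88.5% of all genes. Sycp1 then had an adjusted p of 4.62e-04 and a gap of 0.57 between its highest and lowest group mean. Under quantile normalization all 9 were called as well, with 91.9% of all genes. As deposited, the gap between the highest and lowest group mean was 1.44 for Pou3f1, 1.41 for Piwil2, 0.92 for Tex19.1, 0.60 for Epcam, 0.52 for Nanos1 and between 0.21 and 0.38 for Stag3, Sycp1, Foxo1 and Taf4b.

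Markers of other cell types differed between the same groups. The summed level of the 7 fibroblast markers was 472.4 to 538.83 FPKM in 8276OV, against 625.05 to 631.03 in 5NC, and 396.52 to 466.99 in 8276KD, against 323.48 to 334.89 in 3NC. The sum of the 9 epithelial and mesothelial markers was 747.68 to 881.45 FPKM in 8276OV, against 1159.5 to 1178.8 in 5NC, and 832.91 to 969.36 in 8276KD, against 630.18 to 646.24 in 3NC. Both sums, like Pou3f1 and Piwil2, were highest in 5NC and lowest in 3NC, and their part in the differences was not tested. The sums are carried by a few abundant genes such as Upk3b and Col1a1, and single markers went other ways: Krt8, Krt18 and Krt19 were highest in 8276KD, Dcn in 8276OV and Pdgfra in 3NC. The median log2 difference of 8276OV against 5NC was -0.442 for the epithelial and mesothelial and -0.444 for the fibroblast markers, and after GC correction 0.013 and 0.007. Sertoli cell markers summed to 58.55 to 60.40 FPKM in 8276OV, against 67.77 to 69.57 in 5NC, and 69.07 to 75.70 in 8276KD, against 60.01 to 61.31 in 3NC. Wt1, at 49.0 to 62.8 FPKM and highest in 8276KD, carried most of this sum, whereas Clu, Gata4 and Inha were highest in 5NC. Peritubular myoid markers summed to 68.59 to 78.37 FPKM in 8276OV, against 85.40 to 90.47 in 5NC, and 70.07 to 81.04 in 8276KD, against 80.26 to 84.68 in 3NC. Tagln, at 44.01 to 57.73 FPKM, carried most of the myoid sum. Macrophage markers stayed between 1.72 and 6.39 FPKM, Leydig cell markers between 0.88 and 2.03 and endothelial markers between 0.41 and 1.15. In bulk RNA, fewer cells of a type and less RNA per cell cannot be told apart.

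Of the 26 other genes of GDNF signalling and self-renewal that were listed, 24 were in the table and 16 reached 1. In 8276OV against 5NC, 5 of these 16 rose and 6 fell, where 30.3% and 44.1% of all tested genes did, with a median difference of -0.066 beside -0.088 over all tested genes. The fibroblast growth factor receptor Fgfr1 fell by 1.12 (limma adjusted p = 2.28e-07), and the surface proteins Cd9 and Itgb1, used to enrich stem spermatogonia, rose by 0.45 and 0.30 (adjusted p = 4.86e-06 and 7.63e-05). After GC correction the counts were 9 higher and 3 lower (median 0.234, all genes 0.002), with Fgfr1 at -0.67 and Itgb1 at 0.11. Of all 11197 genes tested with this correction, 3115 were called higher and 3020 lower. With 3NC as the control of 8276OV, 2 were higher and 13 lower as deposited (median -0.537, all genes -0.058), and 4 and 10 after GC correction. Of all tested genes as deposited, 3802 were called higher and 4736 lower there. Cd9 had 81.18 to 86.35 FPKM in 8276OV, 58.98 to 65.71 in 5NC and 98.37 to 107.14 in 3NC, so it rose against 5NC only. Itgb1 lay above both controls. In 8276KD against 3NC, 4 rose and 7 fell, where 20.0% and 19.5% of all tested genes did (median -0.092, all genes -0.005), including the GDNF-responsive ETS factors Etv4 and Etv5 (-0.92 and -0.80, adjusted p = 2.43e-07 and 1.63e-05) and the ERK phosphatase Dusp6 (-0.57, 1.14e-05), while Mcam rose by 0.56 (4.39e-07). Against 5NC in place of 3NC, 8 were higher and none lower in 8276KD (median 0.264, all genes -0.031), and Etv4, Etv5 and Dusp6 turned to 1.90, 0.31 and 0.34 (adjusted p = 1.86e-10, 0.00891 and 4.47e-04). Of all 11360 tested genes, 2811 were called higher and 3470 lower in 8276KD than in 5NC. Between the controls, 1 was higher and 9 were lower in 5NC, where 30.6% and 25.9% of all tested genes were (median -0.218, all genes 0.022), among them Etv4 (-2.82, adjusted p = 3.42e-12), Dusp6 (-0.91, 4.15e-08) and the ERK inhibitor Spry4 (-0.92, 9.33e-08).

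Other genes of germ cell RNA and the piRNA pathway were mostly low: 24 of 26 were in the table, 9 reached 1 and 8 were tested. In 8276OV against 5NC, 3 rose and 2 fell, where 30.3% and 44.1% of all tested genes did (median -0.016, all genes -0.088), with Tdrkh, a mitochondrial partner of PIWI proteins, at 0.45 (limma adjusted p = 1.40e-04) and the RNA helicase Mov10 at -0.58 (2.55e-05). After GC correction 1 was higher and none lower (median -0.024), where 3115 and 3020 of all 11197 genes were. Tdrkh then stood at 0.21 (adjusted p = 0.0175) and Mov10 at -0.021 (0.771). In 8276KD against 3NC, 2 rose and none fell, where 20.0% and 19.5% of all tested genes did (median -0.017, all genes -0.005): the germ cell helicase Ddx25 by 0.70 (adjusted p = 4.22e-05) and Tex15, a factor of piRNA-directed silencing, by 0.24 (0.0489). After GC correction Tex15 was no longer called (0.16, adjusted p = 0.143) and Tdrd7 was called lower (-0.13, 0.0452). As deposited, Ddx25 and Tex15 were also higher in 5NC than in 3NC, by 0.84 and 0.27 (adjusted p = 2.68e-06 and 0.0174), where the list had 2 genes higher and 2 lower (median -0.006, all genes 0.022). Over all tested genes, 30.6% were called higher and 25.9% lower in 5NC.

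Of 39 other meiosis genes, 36 were in the table, and 18 reached 1 and were tested. In 8276OV against 5NC, 9 rose and 2 fell (median 0.147, all genes -0.088), where 30.3% and 44.1% of all tested genes did. The rises included general cohesin subunits that dividing cells also use, Smc3 (0.41, limma adjusted p = 1.39e-05) and Smc1a (0.31, 9.46e-06), and Sgo2a, a protector of centromeric cohesin (0.49, 5.60e-05). The histone reader Zcwpw1 fell by 0.61 (adjusted p = 2.01e-06). After GC correction 4 were higher and 5 lower (median -0.008, all genes 0.002), where 3115 and 3020 of all 11197 genes were. Smc3 then stood at 0.12, Sgo2a at 0.16 and Zcwpw1 at -0.92. In 8276KD against 3NC, 4 rose and 1 fell, where 20.0% and 19.5% of all tested genes did (median 0.087, all genes -0.005), with the checkpoint ATPase Trip13 and the recombination cofactor Mnd1 both at 0.32 (adjusted p = 1.69e-04 and 0.0140) and Syce2, of the synaptonemal central element, at -0.30 (0.00423). Between the controls, 6 were higher and 2 lower in 5NC (median 0.076, all genes 0.022), where 30.6% and 25.9% of all tested genes were. They were led by Zcwpw1 (0.64, adjusted p = 1.41e-06) and by Brca2 (0.69, 7.58e-06), a loader of recombinases. Trip13 was also higher in 5NC than in 3NC, by 0.31 (adjusted p = 9.39e-05). Its 28.07 to 29.47 FPKM in 8276KD lay within the 27.22 to 29.73 FPKM of 5NC. With 5NC as the control of 8276KD, 2 genes of the list were higher and 6 lower (median 0.009, all genes -0.031). Of all tested genes, 2811 were called higher and 3470 lower in that comparison.

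DNA methylation enzymes and known repressors of germline genes were expressed, with 17 of 19 in the table at or above 1 in some library. In 8276OV against 5NC, 2 of 17 rose and 8 fell, where 30.3% and 44.1% of all tested genes did (median -0.136, all genes -0.088), including Mbd3 (-1.10, limma adjusted p = 1.03e-06), the histone methyltransferase Ehmt2 (-0.78, 1.03e-05), Trim28 (-0.46, 2.47e-05) and the DNA methyltransferase Dnmt3a (-0.40, 2.57e-05). After GC correction 4 were higher and 3 lower (median -0.03), where 3115 and 3020 of all 11197 genes were. Mbd3 then stood at -0.31, Dnmt3a at -0.18 (adjusted p = 0.00663) and Ehmt2 at -0.067 (adjusted p = 0.174), and Trim28 turned to 0.20 (3.36e-05). In 8276KD against 3NC (median -0.05, all genes -0.005), 2 rose, E2f6 (0.19, adjusted p = 0.0268) and Pcgf6 (0.20, 0.0217), known members of the repressor complex named above, and 3 fell, among them Dnmt1 (-0.30, 0.00185) and the demethylase Tet2 (-0.50, 4.18e-04). Of all tested genes, 20.0% rose and 19.5% fell in 8276KD against 3NC. Between the controls, 6 were higher and 3 lower in 5NC (median 0.093, all genes 0.022), where 30.6% and 25.9% of all tested genes were. Dnmt3b stood at 0.48 (adjusted p = 2.56e-04) and Tet2 at -0.61 (3.75e-05). Sohlh1, Neurog3 and Mael were listed at 0 in all 12 libraries by the definition of their class, so they hold no information on these differences.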

How the data were processed

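The authors deposited a table of 17576 genes with a value per library in 2 decimals, read here as FPKM from the values. The unit stands in no label or header, and TPM of a larger gene set cannot be told apart from it. The submitters' processing notes name the build mm10. For aligner, quantifier, annotation and strand setting, nothing is given in the sources used here. The 38 genes and the related lists were chosen with earlier results of these data known. Genes with at least 1 in at least 3 of 12 libraries were kept (11360), and log2(value + 1) was fitted as deposited with limma 3.58.1 in R 4.3.3, with 4 group means in a joint fit (eBayes, trend and robust). P-values are two-sided and Benjamini-Hochberg adjusted over all tested genes, with a threshold of 0.05. No count test was used because the values are not counts. An exact permutation test of 3 against 3 libraries cannot go below 0.1. Every germ cell gene is accounted for. From each list up to 4 called genes with the smallest p were eligible for naming. Depth was read from genes above 0 in at most 3 libraries, from their values of 0.05 or more, as the peak of 1 fragment between 10 and 16 M fragments. The window was preset, and estimates outside it were set aside. Among those were 229 at 6 to 8 M, read as 2 fragments. GC correction removed, in each library, a natural spline (5 degrees of freedom) fitted to the GC content of GENCODE M21 transcripts. Exon overlaps are those of GENCODE M21, and promoters, symbols and positions those of RefSeq (GRCm38.p6), in which 17458 genes were found. In simulated data for 8276OV against 5NC with 200 of 11174 genes changed, the procedure recovered 36.7% of changes of 0.25, 75.5% of 0.5, 97.9% of 1 and 100% of 2, with 11 false calls. The simulation drew independent normal noise around the 3NC means and held no GC trend. In the deposited values 74.4% of genes were called and rho with GC content was -0.789, so these rates do not carry over to them. Alternatives were the pseudocount, the filter, quantile normalization, GC correction, the replicate number as a block, the other control, the compared groups alone, and each library left out.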

Additional observations from a re-analysis of the deposited data

How the results depend on the processing

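The number of germ cell genes called in 8276OV against 5NC was 8 as reported, 3 under GC correction and 3 with the replicate block and GC correction together. In these settings 74.4%, 54.8% and 53.9% of all tested genes were called. Leaving out a library gave 5 to 7 there, 4 to 5 in 8276KD against 3NC, 5 to 6 in 5NC against 3NC, 4 to 6 for the difference of the arms and 8 to 9 over the 4 groups. The shares of all tested genes called were then 68.5 to 74.8%, 30.2 to 44.1%, 49.2 to 50.2%, 55.3 to 63.3% and 89.3 to 92.5%, so the counts are not read as particular to these genes. With a level of 0.1 in place of 1, 18 genes reached it. Directions turned as follows, and the cause was not tested. In 8276OV against 5NC, under GC correction with or without the block, Pou3f1 was 0.11, Sycp1 -0.30 and Tex19.1 0.057. With 3NC as the control, Piwil2 was 0.67, Pou3f1 0.73 and Sycp1 -0.19, and with both controls Pou3f1 was 0.0093 and Sycp1 -0.032. In 8276KD against 5NC in place of 3NC, Piwil2 was -0.68, Pou3f1 -0.25, Sycp1 0.041 and Taf4b -0.10. Taf4b was -0.036 against both controls and -0.019 to 0.12 on leaving out a library. The Epcam difference of the arms was 0.15 under GC correction with or without the block and 0.034 under quantile normalization, which moved the all-gene median of 8276OV minus 5NC to 0.029 and its calls to 4428 higher and 3997 lower, where the values as deposited gave 3447 higher and 5005 lower.

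Libraries with the same replicate number did not deviate together (r of -0.183 to 0.088), so the numbers were not taken as pairs. With the replicate block, 8, 4, 6, 5 and 8 genes were called in the 5 tests, where 74.0%, 39.0%, 56.2%, 60.1% and 91.3% of all tested genes were. Nanos1 in 8276KD against 3NC (adjusted p = 0.0670) and Sycp1 in the difference of the arms (0.0539) were lost. Of the alternatives for single genes other than leaving out a library, 309 kept direction and call, 29 lost a call, 16 gained it and 19 turned. Values near 1 fragment limit what can be said of the 26 genes below 1.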

Other observations

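Genes of later germ cells and of pluripotency were mostly low as well. Of 14 spermatid genes in the table, 2 reached 1: Crem, a transcription factor that other cells also use, and Odf2, a centrosomal and sperm tail protein. Crem rose in 8276OV against 5NC by 0.54 and in 8276KD against 3NC by 0.42 (limma adjusted p = 8.20e-05 and 0.00198), and Odf2 fell by 0.15 and 0.13 (adjusted p = 0.00982 and 0.0345). After GC correction Odf2 was no longer called in 8276OV against 5NC (0.033, adjusted p = 0.541). Of 13 pluripotency genes, 4 reached 1: Klf2, Klf4, Nanog and Dppa2. In 5NC all 4 were higher than in 3NC, Klf4 by 1.60 (adjusted p = 4.26e-10), Klf2 by 0.39 (0.00369), Dppa2 by 0.34 (0.00677) and Nanog by 0.28 (0.0169). Over all tested genes, 30.6% were called higher and 25.9% lower there. In 8276OV against 5NC, Klf2, Nanog and Dppa2 rose by 0.32, 0.31 and 0.30 (adjusted p = 0.00932, 0.00649 and 0.00958) and Klf4 fell by 0.21 (0.0136). After GC correction Klf4 turned to 0.19 (adjusted p = 0.0167), and Nanog and Dppa2 no longer passed (0.170 and 0.624). In 8276KD against 3NC, Klf2 and Klf4 rose by 0.63 and 0.59 (adjusted p = 2.12e-04 and 1.90e-05). Of all tested genes, 30.3% rose and 44.1% fell in 8276OV against 5NC as deposited. In 8276KD against 3NC, 20.0% rose and 19.5% fell.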
